A study of Homo sapiens with 18 samples.

Results

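The BCL2 family was followed at the RNA level in C4-2B cells treated with the AURKA inhibitor VIC-1911, the PARP inhibitor olaparib, or both. The 10 member genes were looked up by gene name, and 10 of 10 were found in the count and FPKM tables of both time points, out of 23154 genes named in the count tables. They comprise 3 survival genes (BCL2, BCL2L1 and MCL1), 2 effectors (BAX and BAK1) and 5 BH3-only genes (BBC3, PMAIP1, BCL2L11, BIK and BID). After 48 hours 9 of them could be tested, BCL2 having too few counts, and after 7 days all 10.

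BCL2 family proteins decide whether the outer mitochondrial membrane stays intact. BAX and BAK1 are the effectors that form pores in it and so release cytochrome c, which assembles the apoptosome and activates caspases. BCL2, BCL2L1 (BCL-XL) and MCL1 hold the effectors in check, and the BH3-only proteins relieve that hold or activate the effectors directly. BBC3 (PUMA) and PMAIP1 (NOXA) are BH3-only genes, and both, like BAX, are textbook targets of the transcription factor p53. PMAIP1 is also a known target of ATF4, the main transcription factor of the integrated stress response, and its protein binds MCL1 preferentially.

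C4-2B is a human castration-resistant prostate cancer cell line, and the sample records give its genotype as wild type. Cells received DMSO vehicle or 0.1 μM VIC-1911 for 48 hours (2 days in the records), and DMSO vehicle, 0.1 μM VIC-1911, 1 μM olaparib or the same doses of both drugs for 7 days. Each of the 6 groups had 3 libraries. Nothing in the records says whether these came from separate cultures, so p-values measure the spread between libraries, which may be technical. Reads counted on genes ranged from 3245273 to 7184420 per library after 48 hours and from 4967931 to 19684208 after 7 days. The prostate luminal marker KLK3 ranged from 1244 to 2697 FPKM over the libraries and moved with treatment, with log2 fold changes against vehicle of -0.20 after 48 hours (adjusted p = 0.000968) and -0.61, -0.71 and -0.69 after 7 days with VIC-1911, olaparib and the combination (largest adjusted p = 6.64e-14). Of 12 markers of leukocytes, fibroblasts, endothelium, basal and neuroendocrine cells, 9 stayed under 1 FPKM everywhere, CD3E, DCN and KRT5 were at 0 in every library, and the 12 summed to between 7.97 and 13.2 FPKM. After 7 days the sum was 9.67 to 10.1 FPKM with vehicle, 10.5 to 10.8 with VIC-1911, 10.8 to 13.1 with olaparib and 12.4 to 13.2 with the combination. CD68, most of that sum, rose by a log2 of 0.42 and 0.59 with olaparib and the combination (adjusted p = 0.000345 and 1.4e-06), COL1A1 rose by 0.28 and 0.43 (adjusted p = 0.0402 and 0.0016), and SYP had log2 fold changes of -1.27 and -1.22 (adjusted p = 6.2e-05 and 6.61e-05). The part of these shifts in the members' changes was not tested. The 3 libraries of a time point's vehicle serve every comparison with vehicle at that time point. At 7 days the vehicle and VIC-1911 libraries carry one run of library numbers and the olaparib and combination libraries another, so anything that differed between the runs cannot be told apart from olaparib. VIC-1911 against vehicle, and combination against olaparib, lie within a run.

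The stretches before the transcription starts of the 3 genes compared most closely are printed first, because BAX, BBC3 and PMAIP1 share p53 as a known regulator and moved apart in these cells. They are RefSeq promoter windows on GRCh38.p14, read 5′ to 3′ on the strand of the gene and ending at the base before an annotated start. Capitals mark E-boxes (CACGTG, the same on both strands) in BAX and BBC3 and a CRE half-site (TGACGT on either strand, here read as ACGTCA) in PMAIP1. The BBC3 window is cut short where the GENCODE annotation gives an untranslated region, and it precedes an internal start, so its 3′ part lies inside the gene as RefSeq bounds it.
BAX, chr19:48954625-48954874, plus strand: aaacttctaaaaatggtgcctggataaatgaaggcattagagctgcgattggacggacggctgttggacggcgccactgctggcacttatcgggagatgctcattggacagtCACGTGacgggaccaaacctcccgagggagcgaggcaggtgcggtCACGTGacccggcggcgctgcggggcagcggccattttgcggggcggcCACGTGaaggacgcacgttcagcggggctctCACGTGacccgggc
BBC3, chr19:47232767-47232917, minus strand: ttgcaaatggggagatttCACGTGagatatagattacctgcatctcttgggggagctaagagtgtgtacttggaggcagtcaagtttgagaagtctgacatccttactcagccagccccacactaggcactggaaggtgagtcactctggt
PMAIP1, chr18:59899746-59899995, plus strand: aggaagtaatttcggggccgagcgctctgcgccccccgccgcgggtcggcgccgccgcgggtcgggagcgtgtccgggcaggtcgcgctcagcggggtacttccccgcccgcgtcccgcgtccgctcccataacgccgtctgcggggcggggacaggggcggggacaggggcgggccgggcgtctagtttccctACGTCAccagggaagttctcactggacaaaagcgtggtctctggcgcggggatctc

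The BAX window held 4 E-boxes, the one nearest to the start ending 9 bases before it. An E-box was found in 6.34% of the 35116 RefSeq windows of this length, and at least 4 were found in 5 windows (0.0142%). The BBC3 window held 1 E-box, and the PMAIP1 window held 1 CRE half-site, a motif present in 7.10% of all windows. A p53 half-site was searched as an exact match to its consensus on both strands, so sites that depart from the consensus were not counted. Such a match was found in 5.57% of windows, in none of these 3 windows and in that of BAK1. Windows were at hand for 8 of the 10 genes, MCL1 and BIK having none. These 8 genes had 13 windows, of which 4 held an E-box. Besides those of BAX and BBC3, the windows with an E-box were alternative windows of BID. These letters describe the windows only; the motifs were chosen after the sequences had been read, and binding was not measured.

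In vehicle-treated cells of 7 days the survival genes MCL1 and BCL2L1 were the most abundant of the 10 transcripts per length, and BCL2 was close to absent. FPKM, the deposited level per kilobase of gene after correction for library size, was 30.4 ± 1.57 (SD, n = 3) for MCL1, 17.9 ± 0.536 for BCL2L1 and 14.1 ± 1.18 for BAX. BIK had 13.2 ± 0.821 FPKM, a range that overlapped that of BAX. BAK1 (6.602 ± 0.301), BID (6.08 ± 0.466), BBC3 (6.02 ± 0.326) and PMAIP1 (4.96 ± 0.942) followed, each overlapping its neighbor in this order. BCL2L11, encoding BIM, had 3.67 ± 0.223 FPKM, and BCL2 had 0.128 ± 0.0755 FPKM on 4 to 32 counts per library. The counts of a gene cover all of its isoforms, so long and short forms of BCL2L1, MCL1 and BCL2L11, which differ in function, are not separated. BBC3 and BID overlap microRNA genes, BCL2 a pseudogene and BCL2L1 long non-coding RNA genes. The strand setting of the counting is not given in the sources used here, which leaves some uncertainty in their counts. BAK1 has pseudogenes, and how reads that fit both were counted was not checked.

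BAX was higher under every treatment, BBC3 was higher with olaparib and with the combination, and PMAIP1 was lower under every treatment. BAX lies at chr19:48954875-48961798, BBC3 at chr19:47220824-47232860 and PMAIP1 at chr18:59899996-59904305 (GRCh38). These 3 genes are described library by library.

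After 48 hours, BAX measured 21.0, 23.1 and 26.1 FPKM in the vehicle libraries and 33.8, 33.9 and 32.0 FPKM in the VIC-1911 libraries. The lowest VIC-1911 library was above the highest vehicle library. The log2 fold change was 0.47 (95% interval 0.30 to 0.64, adjusted p = 9.75e-05, edgeR's quasi-likelihood test with Benjamini-Hochberg adjustment, as for every adjusted p below), a 1.39-fold rise. After 7 days, BAX measured 14.6, 12.7 and 14.9 FPKM with vehicle and 32.0, 32.8 and 35.7 FPKM with VIC-1911. It measured 37.7, 43.7 and 43.97 FPKM with olaparib and 54.7, 46.5 and 49.5 FPKM with the combination. The 4 groups formed 4 separate steps with no overlap between libraries. How many of all genes did so was not counted. Against vehicle, BAX rose 2.35-fold with VIC-1911 (log2 1.23, adjusted p = 8.48e-14), 3.02-fold with olaparib (log2 1.59, adjusted p = 1.05e-16) and 3.62-fold with the combination (log2 1.86, adjusted p = 9.13e-19).

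BBC3 took a different course. After 48 hours it measured 4.71, 4.96 and 3.97 FPKM with vehicle and 4.98, 5.59 and 4.28 FPKM with VIC-1911, and the groups overlapped (log2 fold change 0.09, 95% interval -0.23 to 0.40, adjusted p = 0.769). After 7 days it measured 6.29, 5.66 and 6.11 FPKM with vehicle and 5.66, 5.94 and 5.86 FPKM with VIC-1911. These overlapped again, and the log2 fold change was -0.08 with a 95% interval of -0.27 to 0.10 (adjusted p = 0.448). With olaparib BBC3 measured 10.1, 12.2 and 11.9 FPKM, and with the combination 14.4, 14.4 and 13.9 FPKM. Every library that had received olaparib lay well above every library that had not. The rise against vehicle was 1.92-fold with olaparib (log2 0.94, adjusted p = 5.19e-11) and 2.37-fold with the combination (log2 1.24, adjusted p = 3.44e-14).

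PMAIP1 moved the other way. After 48 hours it measured 4.76, 4.35 and 4.30 FPKM with vehicle and 3.12, 3.06 and 3.07 FPKM with VIC-1911. The groups did not overlap, and the log2 fold change was -0.56 (95% interval -0.93 to -0.18, adjusted p = 0.0358). This call rests on 28 to 55 counts per library. It was lost with DESeq2 (adjusted p = 0.173, range over all alternatives 0.00729 to 0.173) and without any one of vehicle replicates 1, 2 and 3 or VIC-1911 replicates 2 and 3 (adjusted p = 0.0524 to 0.131).

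After 7 days PMAIP1 measured 5.13, 3.94 and 5.80 FPKM with vehicle, 2.33, 1.48 and 1.45 FPKM with VIC-1911, 2.13, 2.08 and 1.87 FPKM with olaparib and 1.91, 2.15 and 2.13 FPKM with the combination. All 9 treated libraries lay below all vehicle libraries, and the treated groups overlapped each other, with VIC-1911 replicate 1 the highest of them. PMAIP1 fell to 0.343 of its vehicle level with VIC-1911 (log2 -1.54, adjusted p = 5.32e-09), to 0.410 with olaparib (log2 -1.29, adjusted p = 7.45e-08) and to 0.426 with the combination (log2 -1.23, adjusted p = 7.96e-08). No alternative changed these 3 calls.

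**Figure D1:**
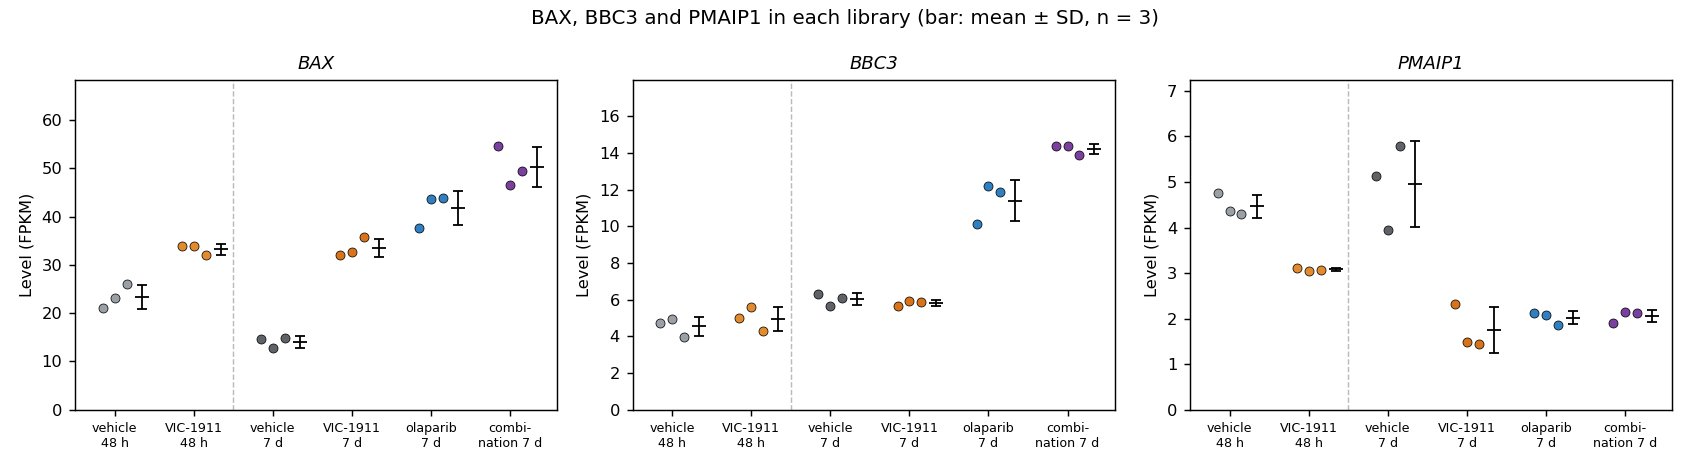
Level (FPKM, linear axis from 0) of BAX, BBC3 and PMAIP1 in each of the 18 libraries by group, with the mean and SD of 3 libraries beside the points. The dashed line separates the time points, whose tables were normalized separately. BAX steps up from 12.7 to 14.9 FPKM with vehicle to between 46.5 and 54.7 FPKM with the combination after 7 days, BBC3 is raised only in the olaparib and combination groups, and PMAIP1 is lowest in the 3 treated groups.

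Ratios within a library put the divergence on one scale that does not depend on library size. After 48 hours the ratio of BAX to PMAIP1 was 5.26 ± 0.826 (SD, n = 3) with vehicle and 10.8 ± 0.346 with VIC-1911. After 7 days it was 2.88 ± 0.332 with vehicle, 20.2 ± 5.70 with VIC-1911, 20.8 ± 2.93 with olaparib and 24.5 ± 3.71 with the combination. The 3 treated groups overlapped in this ratio and none of their libraries came near the vehicle libraries. The ratio of BBC3 to PMAIP1 was 1.24 ± 0.191 with vehicle, 3.50 ± 0.923 with VIC-1911, 5.66 ± 0.818 with olaparib and 6.92 ± 0.554 with the combination. Here each group lay above the one before it without overlap, and in the VIC-1911 group the higher ratio came with a BBC3 level that overlapped vehicle and a lower PMAIP1 level. The ratio of BAX to BBC3 was 2.33 ± 0.0930 with vehicle, 5.76 ± 0.301 with VIC-1911, 3.67 ± 0.0770 with olaparib and 3.53 ± 0.285 with the combination, so it was highest with VIC-1911 alone. These ratios are descriptions and were not tested.

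**Figure D2:**
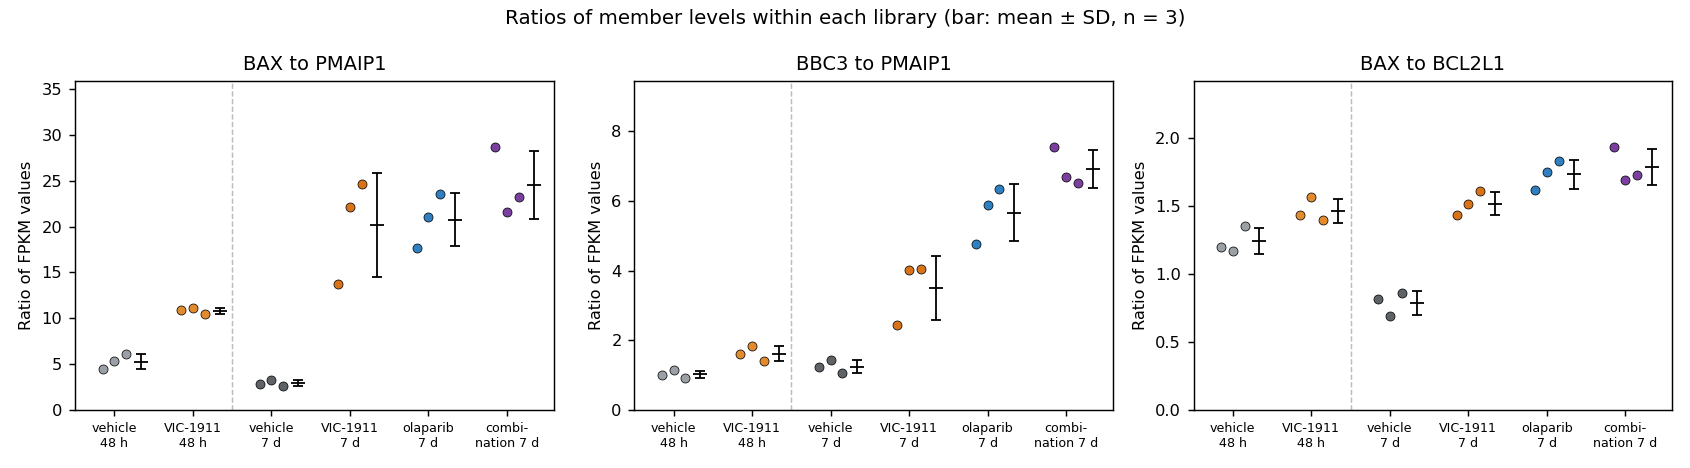
Ratio of FPKM values within each library (linear axes from 0) for BAX to PMAIP1, BBC3 to PMAIP1 and BAX to BCL2L1, by group, with the mean and SD of 3 libraries. After 7 days BAX to PMAIP1 lies between 2.56 and 3.22 with vehicle and between 13.8 and 28.7 in the treated groups, while BAX to BCL2L1 passes 1 in every treated library and in no vehicle library of that time point.

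Over all 10 genes, fewer members were called with VIC-1911 after 48 hours than after 7 days, and the same held for all tested genes. The fit of 48 hours held 6 libraries and that of 7 days 12 libraries of mostly greater depth. The numbers of calls at the time points therefore do not compare like with like. After 48 hours 2 of the 9 tested members rose and 1 fell, beside 14.7% of the 12241 tested genes called in either direction (7.5% higher and 7.19% lower). The median log2 fold change of the members was 0.10, with that of all tested genes close to 0. After 7 days 6 of 10 members rose and 1 fell with VIC-1911, beside 52.4% of 14409 genes called (26.7% higher, 25.7% lower). With olaparib 6 rose and 2 fell, beside 54% called (28.1% higher, 25.9% lower). The combination also had 6 that rose and 2 that fell, beside 56.6% called (28.6% higher, 28% lower). The members' median log2 fold change was 0.19, 0.40 and 0.44 in these 3 comparisons, against -0.01 to 0.01 for all tested genes. None of the 3 members called after 48 hours reached 1.5-fold, which 2.16% of genes did. With a limit of 2-fold after 7 days, the members past it were BAX and PMAIP1 with VIC-1911, beside 6.89% of genes (3.46% higher, 3.43% lower), the same 2 with olaparib, beside 7.16% (3.63% higher, 3.53% lower), and BAX, BBC3 and PMAIP1 with the combination, beside 8.54% (4.55% higher, 4% lower).

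**Figure D3:**
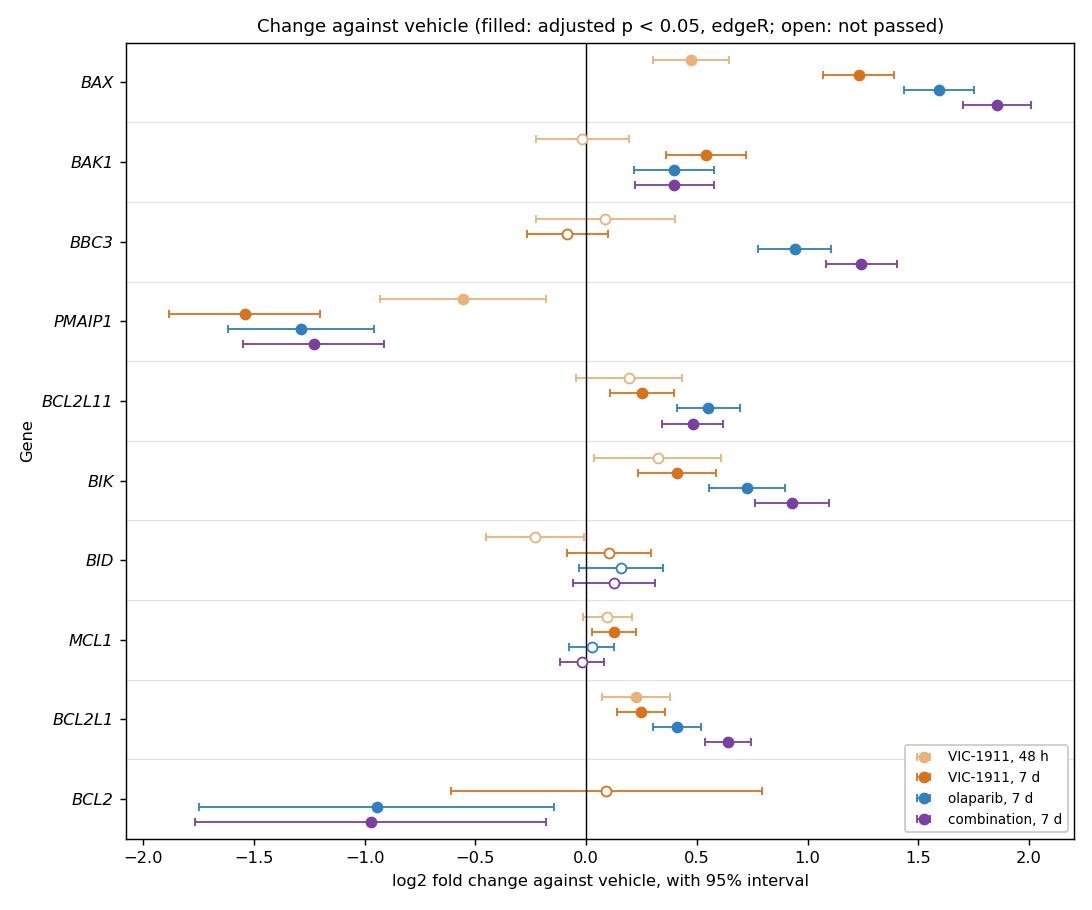
Log2 fold change against the vehicle of the same time point with its 95% interval (edgeR's quasi-likelihood test) for the 10 genes in 4 comparisons; filled points had an adjusted p under 0.05 and open points did not, and BCL2 was not tested after 48 hours. BAX (0.47 to 1.86) and PMAIP1 (-0.56 to -1.54) lie on opposite sides of 0, and the interval of BBC3 spans 0 in both VIC-1911 comparisons.

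The second effector, BAK1 (chr6:33572552-33580276), was called against vehicle only after 7 days, where its level in vehicle libraries was lower than at 48 hours, and it changed less than BAX. After 48 hours it measured 11.3, 10.5 and 11.9 FPKM with vehicle and 11.6, 11.97 and 9.87 FPKM with VIC-1911, which overlapped (log2 fold change -0.02, 95% interval -0.23 to 0.19, adjusted p = 0.942). After 7 days it measured 6.94, 6.51 and 6.36 FPKM with vehicle, 10.2, 9.62 and 10.1 FPKM with VIC-1911, 7.80, 9.06 and 9.12 FPKM with olaparib and 9.46, 7.53 and 9.08 FPKM with the combination. Every treated library was above the vehicle libraries, and the treated groups were not ordered as for BAX, since VIC-1911 alone was the highest. BAK1 rose 1.46-fold with VIC-1911 (log2 0.54, adjusted p = 6.16e-06), 1.32-fold with olaparib (log2 0.40, adjusted p = 0.000405) and 1.32-fold with the combination (log2 0.40, adjusted p = 0.00029).

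Among the other BH3-only genes, BIK and BCL2L11 rose after 7 days under every treatment and BID did not pass the test anywhere. BIK (chr22:43110750-43129712), a BH3-only gene whose protein sits at the endoplasmic reticulum, measured 12.4, 13.1 and 14.0 FPKM with vehicle, 18.4, 18.1 and 17.3 FPKM with VIC-1911, 22.3, 22.4 and 21.1 FPKM with olaparib and 26.7, 23.1 and 24.5 FPKM with the combination. The 4 groups did not overlap and stood in the same order as for BAX, a separation whose share over all genes was not counted. The rises were 1.33-fold (adjusted p = 0.000214), 1.65-fold (adjusted p = 2.11e-08) and 1.90-fold (adjusted p = 5.96e-11). After 48 hours BIK measured 11.9, 9.95 and 12.9 FPKM with vehicle and 15.6, 15.9 and 14.7 FPKM with VIC-1911, without overlap, but the test on counts was not passed (log2 0.32, adjusted p = 0.128). With limma on log2(FPKM + 0.1) it was passed (adjusted p = 0.0141, range over all alternatives 0.0141 to 0.581).

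BCL2L11 (chr2:111120914-111168445), whose product BIM can bind all of the survival proteins, measured 3.79, 3.81 and 3.41 FPKM with vehicle and 4.71, 4.57 and 4.43 FPKM with VIC-1911 after 7 days. It measured 5.41, 5.55 and 5.53 FPKM with olaparib and 4.88, 5.54 and 5.20 FPKM with the combination. All treated groups lay above vehicle, and the olaparib and combination groups overlapped. The log2 fold changes were 0.25 (adjusted p = 0.00352), 0.55 (adjusted p = 8.03e-08) and 0.48 (adjusted p = 5.95e-07). After 48 hours the groups overlapped, at 3.24, 3.25 and 3.54 FPKM with vehicle and 4.23, 2.92 and 3.29 FPKM with VIC-1911 (log2 0.20, adjusted p = 0.295). BID (chr22:17734138-17774665), which links death receptors to mitochondria after its cleavage by caspase 8, ranged from 5.54 to 9.05 FPKM over all 18 libraries. Its libraries overlapped vehicle except with olaparib, where they lay just above it. Its log2 fold changes against vehicle were -0.23 after 48 hours and 0.10, 0.16 and 0.13 after 7 days, with adjusted p-values of 0.156 to 0.371.

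Of the survival genes, BCL2L1 rose under every treatment, MCL1 moved little, and BCL2 was too low for a firm statement. BCL2L1 (chr20:31664452-31723963) measured 17.5, 19.8 and 19.3 FPKM with vehicle and 23.5, 21.7 and 22.9 FPKM with VIC-1911 after 48 hours. The groups did not overlap (log2 0.23, adjusted p = 0.0367). That call was lost with upper-quartile normalization, library size only or DESeq2 (adjusted p = 0.0611, 0.0534 and 0.162) and without vehicle replicate 1 or 3 or VIC-1911 replicate 1 or 3 (adjusted p = 0.0665 to 0.202), the range over all alternatives being 0.0144 to 0.202. After 7 days BCL2L1 measured 18.02, 18.4 and 17.4 FPKM with vehicle, 22.4, 21.7 and 22.2 FPKM with VIC-1911, 23.3, 25.0 and 24.1 FPKM with olaparib and 28.3, 27.5 and 28.6 FPKM with the combination. The 4 groups were again separate and in the order found for BAX, and the share of all genes with this separation was not counted. The rises were 1.19-fold (log2 0.25, adjusted p = 0.000243), 1.33-fold (log2 0.41, adjusted p = 1.51e-07) and 1.56-fold (log2 0.64, adjusted p = 8.94e-12), each smaller than that of BAX. The ratio of BAX to BCL2L1 was 0.785 ± 0.0862 with vehicle, 1.52 ± 0.0872 with VIC-1911, 1.73 ± 0.105 with olaparib and 1.78 ± 0.131 with the combination (SD, n = 3).

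MCL1 (chr1:150574558-150579610), a short-lived survival protein, had the highest level of the 3 survival genes in all groups. After 48 hours it measured 34.5, 34.01 and 38.9 FPKM with vehicle and 37.5, 38.2 and 38.0 FPKM with VIC-1911 (log2 0.10, adjusted p = 0.259). After 7 days it measured 30.8, 31.6 and 28.6 FPKM with vehicle, 34.5, 34.9 and 33.6 FPKM with VIC-1911, 28.9, 33.2 and 31.5 FPKM with olaparib and 30.3, 29.7 and 30.6 FPKM with the combination. VIC-1911 libraries were just above vehicle, and the other groups overlapped vehicle. VIC-1911 raised MCL1 by a log2 fold change of 0.13 (adjusted p = 0.0328), a call lost with upper-quartile normalization (adjusted p = 0.0729), among genes of at least 1 FPKM (0.0614) and without vehicle replicate 1 or 3 or VIC-1911 replicate 1 or 2 (0.0744 to 0.210), the range over all alternatives being 0.0113 to 0.210. With olaparib and with the combination its log2 fold changes were 0.03 (95% interval -0.08 to 0.13, adjusted p = 0.69) and -0.02 (95% interval -0.12 to 0.08, adjusted p = 0.777). The ratio of PMAIP1 to MCL1 was 0.165 ± 0.0391 with vehicle and 0.0510 ± 0.0142, 0.0652 ± 0.00755 and 0.0683 ± 0.00486 with VIC-1911, olaparib and the combination.

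BCL2 (chr18:63123346-63320090), the founding member of the family, stayed between 0.0499 and 0.324 FPKM over all libraries, on 3 to 32 counts. After 48 hours, where it was not tested, it measured 0.324, 0.227 and 0.202 FPKM with vehicle and 0.198, 0.136 and 0.162 FPKM with VIC-1911, on 6 to 10 counts per library. After 7 days it measured 0.103, 0.213 and 0.0685 FPKM with vehicle, 0.131, 0.1598 and 0.174 FPKM with VIC-1911, 0.0692, 0.0819 and 0.0705 FPKM with olaparib and 0.0656, 0.0499 and 0.0987 FPKM with the combination. The vehicle libraries overlapped each of the treated groups, with replicate 2 the highest of all 12. The test called BCL2 lower with olaparib (log2 -0.95, adjusted p = 0.0426) and with the combination (log2 -0.97, adjusted p = 0.033). Without vehicle replicate 2 the log2 fold changes were -0.31 (adjusted p = 0.613) and -0.34 (adjusted p = 0.566), so both calls depend on that library. Both were also lost with DESeq2 (adjusted p = 0.133 and 0.108) and without any 1 of the olaparib replicates (0.0624 to 0.134) or combination replicate 1 or 2 (0.0915 and 0.0944), the ranges over all alternatives being 0.0179 to 0.613 and 0.0134 to 0.566.

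**Figure D4:**
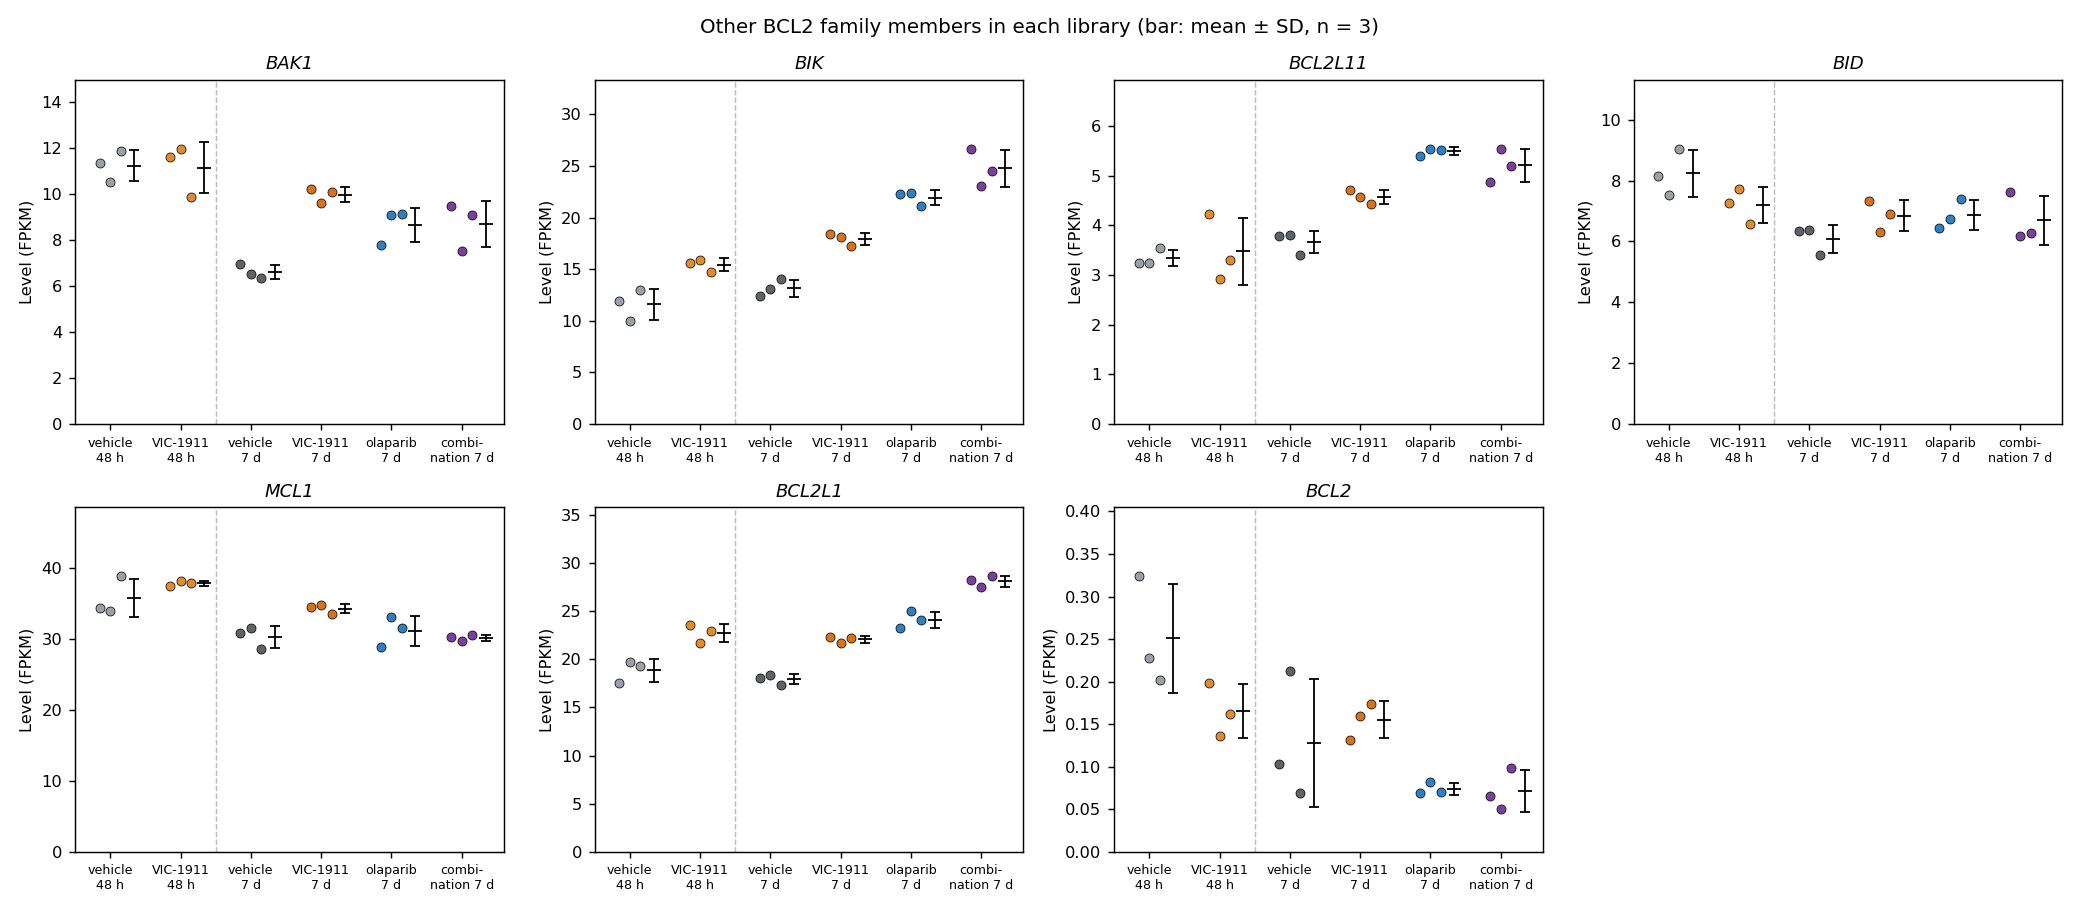
Level (FPKM, linear axes from 0, scaled separately for each gene) of the other 7 members in each library by group, with the mean and SD of 3 libraries; the dashed line separates the time points. BIK and BCL2L1 step up from vehicle to the combination after 7 days without overlap, MCL1 and BID stay within narrow ranges, and BCL2 stays between 0.0499 and 0.324 FPKM. The share of all genes that separated like BIK and BCL2L1 was not counted.

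Summed by role, the effectors held a larger share of the family after treatment, mainly through BAX. From vehicle to the combination of 7 days the mean of BAX went from 14.1 to 50.2 FPKM and that of BAK1 from 6.60 to 8.69 FPKM. In the vehicle libraries of 7 days BAX and BAK1 together made up 20.1% ± 1.12 (SD, n = 3) of the FPKM of the 10 genes, and the survival genes 47.0% ± 2.03. The effector share was 31.7% ± 1.35 with VIC-1911, 32.8% ± 1.18 with olaparib and 34.6% ± 1.39 with the combination. The share of the survival genes was 41.3% ± 0.611, 36.1% ± 0.454 and 34.3% ± 1.27, although their summed level was not lower, at 48.4 ± 2.17 FPKM with vehicle and 58.4 ± 1.05 FPKM with the combination. The share of the 5 BH3-only genes was 32.9% ± 1.095 with vehicle, 26.95% ± 0.920 with VIC-1911 and 31.1% with either olaparib or the combination. After 48 hours the effector share was 28.4% ± 0.801 with vehicle and 31.8% ± 0.753 with VIC-1911. These shares weigh each gene by its transcript level, not by protein, and were not tested.

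The combination was compared with each single drug to see which members went beyond either drug alone. Against olaparib, within one run of library numbers, 3 of 10 members rose and 0 fell, beside 11.5% of all genes called (4.55% higher, 6.95% lower). In the downward direction 0 members had an unadjusted p under 0.05 in edgeR's test, and DESeq2 and limma also called 0. The 3 were BBC3 (1.23-fold, log2 0.30, adjusted p = 0.00454), BAX (1.20-fold, log2 0.26, adjusted p = 0.00738) and BCL2L1 (1.17-fold, log2 0.23, adjusted p = 0.00227). Each of these 3 genes was higher in every combination library than in every olaparib library, and so was BIK, which was not called. How many of all genes separated in this way was not counted. The BAX call was lost with limma on log2(FPKM + 0.1) and log2(FPKM + 1) (adjusted p = 0.0633 and 0.0615). It was also lost without combination replicate 1 (log2 0.20, adjusted p = 0.0658), the range over all alternatives being 0.00134 to 0.0658. PMAIP1 differed by a log2 of 0.06 (95% interval -0.31 to 0.42, adjusted p = 0.883) and BAK1 by less than 0.01 (95% interval -0.17 to 0.17, adjusted p = 0.997). BIK had a log2 difference of 0.20 (adjusted p = 0.0822), which passed without combination replicate 2 (0.25, adjusted p = 0.0357, range over all alternatives 0.0357 to 0.324).

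Against VIC-1911 alone, the combination had 5 members that rose and 2 that fell, beside 42.9% called (20.7% higher, 22.2% lower). BBC3 stood out at 2.51-fold (log2 1.33, adjusted p = 3.65e-14), followed by BAX at 1.54-fold (log2 0.63, adjusted p = 8.02e-09), BIK at 1.43-fold (log2 0.52, adjusted p = 3.04e-06), BCL2L1 at 1.31-fold (log2 0.39, adjusted p = 2.44e-07) and BCL2L11 at 1.17-fold (log2 0.23, adjusted p = 0.00588). The BCL2L11 call was lost with limma on log2(FPKM + 0.1) and log2(FPKM + 1) (adjusted p = 0.0560 and 0.0544, range over all alternatives 0.00165 to 0.0560). The 2 lower members were BCL2 (log2 -1.06, adjusted p = 0.0252) and MCL1 (log2 -0.14, adjusted p = 0.0177). Neither was called without VIC-1911 replicate 2 (adjusted p = 0.0546 and 0.0664), and their ranges over all alternatives were 0.0189 to 0.101 and 0.00924 to 0.0805. BCL2 was also not called without VIC-1911 replicate 3 or combination replicate 1 or 2 (0.0759 to 0.0942), and MCL1 not with upper-quartile normalization (0.0805). Olaparib against VIC-1911 had 5 members that rose and 0 that fell, beside 23.4% called (11.1% higher, 12.3% lower), namely BBC3 (log2 1.03, adjusted p = 1.14e-10), BAX (0.36, adjusted p = 0.000218), BIK (0.32, adjusted p = 0.00452), BCL2L11 (0.30, adjusted p = 0.00139) and BCL2L1 (0.16, adjusted p = 0.0235). In the downward direction 1 member, BCL2, had an unadjusted p under 0.05 in edgeR's test (log2 -1.04, adjusted p = 0.0519), and DESeq2 and limma called 0. The BCL2L1 call was lost with DESeq2 (adjusted p = 0.0594), with no filter on counts (0.0566) and without VIC-1911 replicate 2 or 3 or olaparib replicate 2 or 3 (0.0593 to 0.113), the range over all alternatives being 0.00979 to 0.113. With the limit of 2-fold, no member was past it for the combination against olaparib, beside 0.382% of genes (0.291% higher, 0.0902% lower), BBC3 and BCL2 were past it for the combination against VIC-1911, beside 4.05% (2.23% higher, 1.82% lower), and BBC3 was for olaparib against VIC-1911, beside 1.45% (0.895% higher, 0.555% lower). PMAIP1 passed in neither comparison with VIC-1911, with log2 differences of 0.31 (95% interval -0.07 to 0.69) and 0.25 (95% interval -0.14 to 0.64). Without VIC-1911 replicate 1, in which PMAIP1 was highest, the first was 0.53 (adjusted p = 0.0335, range over all alternatives 0.0335 to 0.543).

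Whether VIC-1911 acted alike with and without olaparib was tested as the difference between its effect in the presence of olaparib (combination against olaparib) and its effect in the absence of olaparib (VIC-1911 against vehicle). This interaction was called for 6 of 10 members, 2 higher and 4 lower, beside 44% of all genes (21% higher, 22.9% lower). For PMAIP1 the log2 effect of VIC-1911 was -1.54 without olaparib and 0.06 with it, a difference of 1.60 (95% interval 1.10 to 2.10, adjusted p = 4.04e-06). For BAX it was 1.23 without olaparib and 0.26 with it, a difference of -0.97 (95% interval -1.18 to -0.76, adjusted p = 6.72e-09), and for BAK1 it was 0.54 and under 0.01, a difference of -0.54 (adjusted p = 0.000573). BBC3 was the reverse case, with an effect of -0.08 without olaparib and 0.30 with it, a difference of 0.39 (95% interval 0.15 to 0.62, adjusted p = 0.00697). BCL2L11 (-0.32, adjusted p = 0.00707) and MCL1 (-0.17, adjusted p = 0.0484) were the remaining calls. The MCL1 call was lost in 12 of its 20 alternatives, with a range of adjusted p from 0.0175 to 0.177. These were DESeq2, upper-quartile normalization, the filter of 1 FPKM and the omission of vehicle replicate 1 or 3, VIC-1911 replicate 1 or 2, olaparib replicate 2 or 3 or any combination replicate. BCL2L1 responded to VIC-1911 by 0.25 without and 0.23 with olaparib, and the interval of the difference was -0.17 to 0.13 (adjusted p = 0.874).

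**Figure D5:**
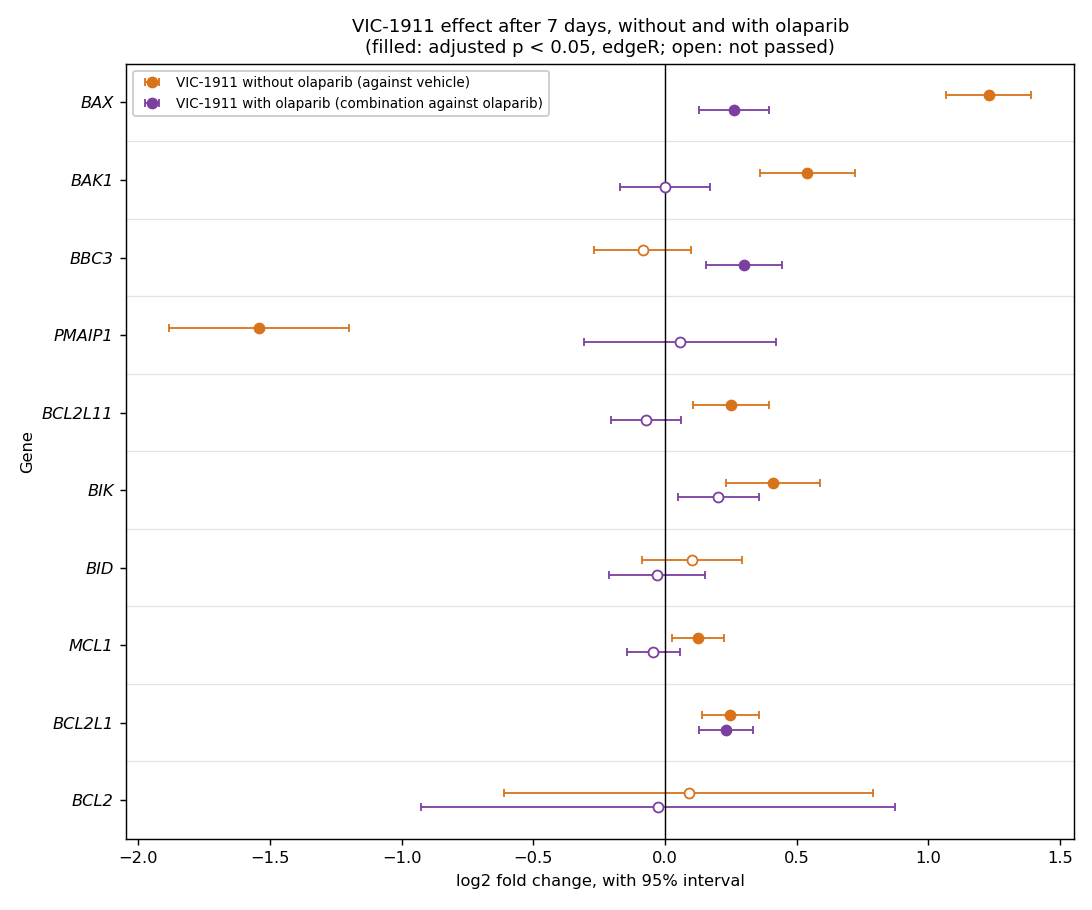
Log2 effect of VIC-1911 after 7 days with its 95% interval for the 10 genes, without olaparib (against vehicle) and with olaparib (combination against olaparib); filled points had an adjusted p under 0.05 in edgeR's test. The PMAIP1 effect goes from -1.54 to 0.06 and the BAX effect from 1.23 to 0.26, whereas BBC3 goes from -0.08 to 0.30 and BCL2L1 stays at 0.25 and 0.23.

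The effect of VIC-1911 also differed between the time points for 3 members. The effect at 7 days less that at 48 hours was tested on 13832 genes named in both count tables, of which 28.8% were called (14.6% higher, 14.2% lower). Among the 10 members, 2 were higher and 1 lower. BAX had a difference of 0.74 (95% interval 0.50 to 0.98, adjusted p = 1.81e-06), BAK1 one of 0.54 (95% interval 0.27 to 0.81, adjusted p = 0.0014) and PMAIP1 one of -0.99 (95% interval -1.53 to -0.46, adjusted p = 0.00324). BBC3 had a difference of -0.19 with an interval of -0.56 to 0.18 (adjusted p = 0.484). The mean BAX level was 33.2 FPKM in VIC-1911 libraries of 48 hours and 33.5 FPKM in those of 7 days, while the vehicle mean was 23.4 FPKM at 48 hours and 14.1 FPKM at 7 days. For BAK1 the means at 48 hours and 7 days were 11.1 and 9.97 FPKM with VIC-1911 and 11.2 and 6.60 FPKM with vehicle. The tables of both time points were normalized separately, so these levels are set side by side without a test.

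Other genes of the pathway were read as lists, written from general knowledge with earlier results of these data known, so their directions are no independent evidence. Of 15 further BCL2 family and BNIP genes, 10 were tested after 48 hours and 11 after 7 days, while the survival gene BCL2A1 and the BH3-only gene HRK, among others, had at most 10 counts in any library. Of these, 1 rose and 1 fell after 48 hours, 3 rose and 2 fell with VIC-1911 after 7 days, 5 and 3 with olaparib, and 5 and 2 with the combination. Over all tested genes 14.7%, 52.4%, 54% and 56.6% were called in these 4 comparisons, so 5 of 11 with VIC-1911 after 7 days is no more than the share of all genes. The survival gene BCL2L2 (BCL-W) fell in the 3 comparisons with vehicle of 7 days, with log2 fold changes of -0.35, -0.56 and -0.71 (adjusted p = 1.23e-05, 6.59e-09 and 3.75e-11). BMF, a BH3-only gene, had a log2 fold change of -0.07 with VIC-1911 (adjusted p = 0.711) and rose by 0.64 with olaparib (adjusted p = 0.000327) and 0.82 with the combination (adjusted p = 7.24e-06), so that its values ran beside those of BBC3. BOK, an effector related to BAX and BAK1, rose by 0.19 to 0.37 after 7 days (largest adjusted p = 0.0092). BCL2L12 fell by 0.31 after 48 hours (adjusted p = 0.00895) and rose by 0.72 with VIC-1911 after 7 days (adjusted p = 8.4e-09).

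Downstream of the mitochondria, genes moved in both directions. Of 14 genes of the apoptosome, the caspases and their inhibitors, 2 rose and 1 fell after 48 hours, 5 rose and 2 fell with VIC-1911 after 7 days, 5 and 2 with olaparib, and 6 rose with the combination, with median log2 fold changes of -0.01, 0.15, 0.13 and 0.08. Called in either direction were 3, 7, 7 and 6 of 14, to be read beside the same shares of all genes. CYCS, encoding the cytochrome c that BAX and BAK1 pores release, rose by 0.69, 0.65 and 0.64 after 7 days (adjusted p = 5.62e-13, 2.45e-12 and 2.24e-12). The caspase inhibitor XIAP fell by 0.31 with VIC-1911 (adjusted p = 2.7e-05) and by 0.15 with olaparib (adjusted p = 0.0199), and had a log2 fold change of -0.08 with the combination (adjusted p = 0.205). BIRC5 (survivin), also a gene of mitosis, fell by 0.25 after 48 hours (adjusted p = 0.00268). After 7 days it rose by 1.65 with VIC-1911 (adjusted p = 3.16e-16) and by 0.63 with olaparib (adjusted p = 5.12e-07). With the combination its log2 fold change was 0.13 (adjusted p = 0.215).

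The known regulators were read beside the members. Of 20 genes for p53 and its targets, BAX, BBC3 and PMAIP1 left out, 16 rose after 48 hours, 15 rose and 1 fell with VIC-1911 after 7 days, 18 rose with olaparib and 19 with the combination. Their median log2 fold changes were 0.51, 0.62, 1.21 and 1.34. Of all tested genes, 7.5%, 26.7%, 28.1% and 28.6% were called higher and 7.19%, 25.7%, 25.9% and 28% lower in these 4 comparisons. CDKN1A (p21) rose by 1.23, 1.84, 3.04 and 3.31 in these comparisons and MDM2 by 0.61, 0.68, 1.34 and 1.45 (largest adjusted p = 1.25e-11 for MDM2). BAX rose in the same comparisons, BBC3 in only the last 2, and PMAIP1 fell in all of them. Of 12 integrated stress response genes, 9 fell after 48 hours, and 12, 11 and 11 fell after 7 days with VIC-1911, olaparib and the combination, with median log2 fold changes of -0.73, -2.01, -2.06 and -1.88. TRIB3 fell, with log2 fold changes of -0.93, -2.55, -2.94 and -2.97, and so did CHAC1, with -1.31, -4.24, -4.53 and -4.14. In the interaction, 12 of the 12 integrated stress response genes were called higher. Of the 20 p53 list genes, 14 were called lower and 2 higher there, beside 22.9% lower and 21% higher over all tested genes. The part of either regulator in the members' changes was not tested.

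The genes whose levels ran most closely with BAX, BBC3 and PMAIP1 over the 12 libraries of 7 days were found by Pearson's r of log2 CPM among 11678 genes. Nearest to BAX were FBRSL1 (r = 0.995), RPS27L (0.995), PSPC1 (0.993), RAP2B (0.991) and TXN (0.990). RPS27L, itself a known p53 target, had mean levels of 49.1, 96.5, 122 and 133 FPKM with vehicle, VIC-1911, olaparib and the combination. Nearest to BBC3 were BTG1 (r = 0.986), SOX9 (0.982), ADRA2A (0.981), PCDHB2 (0.977) and SDC3 (0.9755). SOX9 had mean levels of 3.52, 4.02, 6.95 and 8.15 FPKM in the same order. Nearest to PMAIP1 were TTC25 (0.979), ULBP1 (0.968), TMEM87A (0.967), YIPF5 (0.965) and LAMP3 (0.962), and ULBP1 had 5.11 FPKM with vehicle and 1.02, 1.13 and 1.02 FPKM with the treatments. These coefficients describe 4 groups of 3 libraries that differ in treatment, so the points share their groups, and no p is given.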

How the data were processed

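The 18 RNA-seq libraries were grouped by their sample records. Per the methods and records, the authors used Trimmomatic for trimming and STAR (2.6.0 in the submitters' processing notes) for alignment to GRCh38, and deposited raw counts of reads per gene in one table per time point. FPKM values, computed by the authors with an in-house Perl script, were used as deposited, as levels. The 48-hour FPKM values rest on more reads than the counts. Relative to the median gene, the ratios of FPKM to counts were 0.966 to 1.07 for the members other than BCL2. BCL2 had too few counts for this ratio. In total 0 columns of sample values were left unused. The members and gene lists were chosen with earlier results of these data known, and the named genes are the members, up to 4 genes of each further list, by smallest adjusted p-value against vehicle, and the 5 genes most like BAX, BBC3 or PMAIP1; BCL2A1 and HRK were named after their values were seen.

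The test was edgeR's quasi-likelihood test (edgeR 4.0.16 under R 4.3.3, TMM scaling, glmQLFit and glmQLFTest). A gene was tested if 3 or more libraries of the fit had 10 or more counts, which left 12241 genes for 48 hours and 14409 for 7 days, the latter in one fit of 12 libraries. P-values were adjusted by Benjamini-Hochberg over all genes of a comparison, and genes with an adjusted p under 0.05 were called, with no limit on the fold. The biological coefficient of variation was 3.44% at 48 hours and 4.43% at 7 days. Alternatives were upper-quartile normalization, library size only, no filter, a filter of mean FPKM of at least 1, a replicate block, the compared groups alone, limits of 1.5-fold (48 hours) and 2-fold (7 days), DESeq2 1.42.0, limma 3.58.1 on log2(FPKM + 0.1) and log2(FPKM + 1), and each library left out in turn. The code was tested on simulated data. No pair of replicates agreed within sampling noise (chi-square per degree of freedom 1.26 to 1.75 at 48 hours and 1.65 to 5.39 at 7 days). Gene names turned into calendar dates held 0.182% and 0.193% of the counts at 48 hours and 7 days and were kept. Coordinates are those of RefSeq genes on GRCh38. Part of the prostate marker list is not reported here.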

Additional observations from a re-analysis of the deposited data

Results flagged for a closer look

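The effect of VIC-1911 differed with and without olaparib for 6 of 10 members by the test of the interaction, beside 44% of all tested genes. The log2 differences were 1.60 for PMAIP1, 0.39 for BBC3, -0.97 for BAX, -0.54 for BAK1, -0.32 for BCL2L11 and -0.17 for MCL1. The last of these was lost in most alternatives, as given with its result. The effect of VIC-1911 differed between 7 days and 48 hours for 3 of 10 members by the same kind of test. This is close to the share of all tested genes, 28.8%. The log2 differences were 0.74 for BAX, 0.54 for BAK1 and -0.99 for PMAIP1. For BAX and PMAIP1 the sign of the effect was the same at both times and its size was larger at 7 days. The libraries of both times are in separate tables, so anything else that differed between them cannot be told apart from time.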

How the results depend on the processing

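Of 89 tests of a member in a comparison, 50 were past the threshold; 11 of these 50 lost it under at least 1 alternative and 0 reversed. At 48 hours the members higher numbered 1 with upper-quartile normalization, library size only or DESeq2 and 0 with the 1.5-fold limit, and the members lower 0 with DESeq2 or that limit. With the 2-fold limit the members higher and lower were 1 and 1 for VIC-1911, 1 and 1 for olaparib, 2 and 1 for the combination, 1 and 1 for the combination against VIC-1911, 1 higher for olaparib against VIC-1911 and 0 higher for the combination against olaparib. Members lower numbered 1 for olaparib with library size only, no filter, DESeq2, either limma fit or the filter of 1 FPKM; 1 for the combination with DESeq2, either limma fit or that filter; and 1 for the combination against VIC-1911 with upper-quartile normalization, library size only, DESeq2, either limma fit or that filter. These reductions concern BCL2 and MCL1.

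Libraries with the same replicate number had little in common (correlations of -0.04 to 0.11 over 21 pairs, 1 of them over 0.1), so the numbers were not taken as a pairing. With the replicate block, and in a fit of the compared groups alone, BCL2 was called for olaparib against VIC-1911, which made 1 member lower; the block reversed the small differences of BCL2 (0.080) and BAK1 (-0.012) for the combination against olaparib. Other reversals were those of unpassed values near 0, namely MCL1 for the combination (0.034, library size only), BAK1 for the combination against olaparib (-0.012, no filter), BID for the combination against VIC-1911 (-0.037 and -0.032, limma) and BCL2L1 in the interaction (0.017 with upper-quartile normalization and 0.00885 among genes of 1 FPKM).

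With each library left out in turn, the members higher at 48 hours numbered 1 to 2 and the members lower 0 to 1, and the members lower 1 to 2 for olaparib, 1 to 2 for the combination and 0 to 2 for the combination against VIC-1911. Some log2 values that had not passed changed sign, over ranges of -0.089 to 0.065 for BAK1 at 48 hours, -0.15 to 0.72 for BCL2 with VIC-1911, and -0.023 to 0.063 and -0.063 to 0.0013 for MCL1 with olaparib and the combination. For the combination against olaparib the ranges were -0.0086 to 0.12 for PMAIP1, -0.32 to 0.13 for BCL2, -0.063 to 0.082 for BAK1 and -0.14 to 0.040 for BID. BID ranged from -0.082 to 0.072 for the combination and from -0.017 to 0.098 for olaparib against VIC-1911. In the interaction BCL2 ranged from -0.75 to 0.13 and BCL2L1 from -0.033 to 0.013. In the difference between time points the ranges were -0.058 to 0.078 for BCL2L1, -0.053 to 0.081 for MCL1, -0.054 to 0.20 for BCL2L11 and -0.077 to 0.24 for BIK. BID passed there with library size only (0.37, adjusted p = 0.0468) and without VIC-1911 replicate 2 of 48 hours (0.39, adjusted p = 0.0447) or of 7 days (0.39, adjusted p = 0.0374), against an adjusted p of 0.0959 with all libraries and a range of 0.0374 to 0.221 over all alternatives. In the interaction BIK passed with either limma fit (adjusted p = 0.0201 and 0.0228, against 0.147 in edgeR, range 0.0201 to 0.363). Depth limits BCL2, with 3 to 32 counts, and PMAIP1 at 48 hours most.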
